A study of Rattus norvegicus with 30 samples.

Results

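The genes described here encode the proteins of the cytosolic ribosome, the machine that translates nearly all messenger RNA of the cell. They were chosen by symbol: Rpl or Rps followed by a number and at most a short suffix, plus Rplp0, Rplp1, Rplp2 and Rpsa, without the Rps6k kinases and without provisional locus names. This gave 81 of the 26785 genes and unnamed transcripts on the array, 50 of the large (60S) and 31 of the small (40S) subunit. Each gene was read by its brightest probe, and 78 genes (48 large and 30 small subunit) passed the filter on dim probes. All 78 were well above background on all 30 arrays. Rpl27l2, Rpl39l1 and Rps12l4 did not pass: they were above background on 1, 5 and 1 of the 30 arrays.

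The hearts came from male rats of the Sprague Dawley strain, 16 to 18 weeks old, and transcripts of the left ventricle were measured on one-colour Agilent arrays, 1 per heart. There were 6 groups of 5 hearts, labelled as biological replicates. The diet was chow or high in sucrose (given for 8 to 10 weeks), and the labels equate the second with insulin resistance. After excision into ice-cold buffer under chloral hydrate anaesthesia, hearts of either diet were dissected and frozen directly (non-perfused) or perfused outside the body for 60 min in the working mode. Their buffer contained either glucose at 25 mmol/L or, as osmotic control of the hearts without glucose, the same amount of mannitol. It also contained calcium (2.5 mmol/L), propionate (2 mmol/L), acetoacetate (1 mmol/L) and hydroxybutyrate (10 mmol/L). The series asks how perfusion, glucose and the diet change cardiac transcripts. No group was perfused with another buffer or for another time, so reperfusion, work outside the body and wash-out of blood go together in the perfused hearts and cannot be told apart.

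A ribosome joins a small subunit, which decodes the message, to a large subunit, which forms the peptide bonds. Cells make the ribosomal proteins in matched amounts, and vertebrate messengers for them usually begin with a C followed by a run of pyrimidines, the terminal oligopyrimidine tract, through which the mTOR pathway and the protein Larp1 set how much of the messenger is translated and how stable it is. In the heart, ribosome production goes up when the muscle grows, and striated muscle has a large subunit protein of its own, Rpl3l, that can take the place of Rpl3.

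The start sites of a few members are shown because messengers of this kind usually begin with the tract, although not every annotated start shows it. Each window runs from 20 bases before to 10 bases from the start that RefSeq annotates in GRCr8, 5′ to 3′ on the strand of the gene. Capitals mark the run, nearest to the start, of a C and at least 4 further pyrimidines.
Rpl14: cggcagggcgggCCCTCTCCCTTCTCgctg
Rpl35: ggccccgCCCCTTCCTCTTTCTCTCgaacc
Rpl22: cctgcgtagtgcgCCCCCCTCCCTTTCTgc
Rps10: gctgcgccgcgcacgCCCCTTCCTTTCCag
Rpl13a: caagaCCTCTTCCTTTCCTaggcggctgcc
Rpl24: gaagggaatttagggaggagattctctacc
Rpl3: ctgcaccagcgcctgctcgatctctatcgg
Rpl22l1: tgagcgctccgtggatatccggttccgagt
The windows lie at chr8:129163600-129163629 (Rpl14, plus strand), chr3:43165912-43165941 (Rpl35, minus), chr5:168117941-168117970 (Rpl22, plus), chr20:5700735-5700764 (Rps10, minus), chr1:104748904-104748933 (Rpl13a, minus), chr11:58128396-58128425 (Rpl24, minus), chr7:113507981-113508010 (Rpl3, minus) and chr2:113683176-113683205 (Rpl22l1, plus). Rpl14, Rpl35 and Rpl22 have a C followed by at least 4 pyrimidines exactly at the annotated start, while Rps10 and Rpl13a have it within 10 bases. Rpl24, Rpl3 and Rpl22l1 do not have it in this window. RefSeq had a window for 63 of the 78 tested genes (64 windows, since 1 gene had a pair). The motif, C then 4 letters that are C or T, read on the gene's strand only, stood at the start in 23 of these 64 windows (35.9%), against 2.63% of all 33469 windows of the table. Within 10 bases of the start it stood in 48 of the 64 windows of members and in 28.9% of all windows. An annotated start can lie a few bases from the one used in the heart, so a missing match says only that these letters are not in this window.

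As a group, the ribosomal protein genes were among the brightest on the array. Levels are given as log2 of the processed signal minus the array's own 75th percentile, so a level of 6 is far above most probes. Of the 78 genes, 75 (96.2%) lay in the brightest 10% of the 18333 tested genes. Within a group, replicate hearts differed little: the median standard deviation of a member was 0.135, against 0.231 over all tested genes and 0.153 over the other 1759 genes of the brightest 10%. The steadiest was Rps29, a small zinc-binding protein of the 40S subunit, at 0.0747, and the most variable was Rps7, a 40S protein that can bind Mdm2, at 0.34. Rps7 levels in non-perfused chow hearts were 5.65, 5.22, 5.37, 5.40 and 5.46, but chow hearts perfused with glucose split into 5.35, 5.46 and 5.30 against 4.59 and 4.53. A like split appeared in sucrose hearts perfused with glucose, with 5.54, 5.38 and 5.21 against 4.48 and 4.57. The mannitol groups and non-perfused sucrose hearts are not listed here, so the split is not shown to be particular to glucose. Glucose against mannitol gave -0.28 for Rps7 in chow hearts and -0.24 in sucrose hearts. Neither was called in limma (adjusted p = 0.999 and 0.997). The mean perfusion difference of Rps7, -0.17 (95% interval -0.43 to 0.09), was not called. After the group means were removed, 2 members' levels were only weakly related over the 30 arrays, which share slides and scaling: the median correlation of the 3003 pairs was 0.0857, and 61.2% of the pairs were above 0.

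The median level of the 78 genes on an array ran from 5.92 to 6.26 over the 30 arrays. Non-perfused chow hearts stood at 6.26, 6.19, 5.99, 6.13 and 6.17, chow hearts with mannitol at 6.07, 6.16, 6.15, 6.14 and 6.05, and chow hearts with glucose at 6.04, 6.03, 6.12, 6.04 and 6.05. Non-perfused sucrose hearts stood at 6.23, 6.06, 6.12, 6.25 and 6.16, sucrose hearts with mannitol at 5.92, 6.03, 5.96, 5.98 and 5.92, and sucrose hearts with glucose at 6.10, 6.07, 6.07, 6.01 and 6.03. The sucrose mannitol hearts were lowest, and all 5 lay under the 5 non-perfused hearts of their diet, while the other perfused groups overlapped theirs. When the arrays were instead brought to one common distribution (quantile scaling), the same medians ran from 15.56 to 15.81, and non-perfused hearts (15.56 to 15.81) enclosed the perfused ones (15.58 to 15.72).

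**Figure D1:**
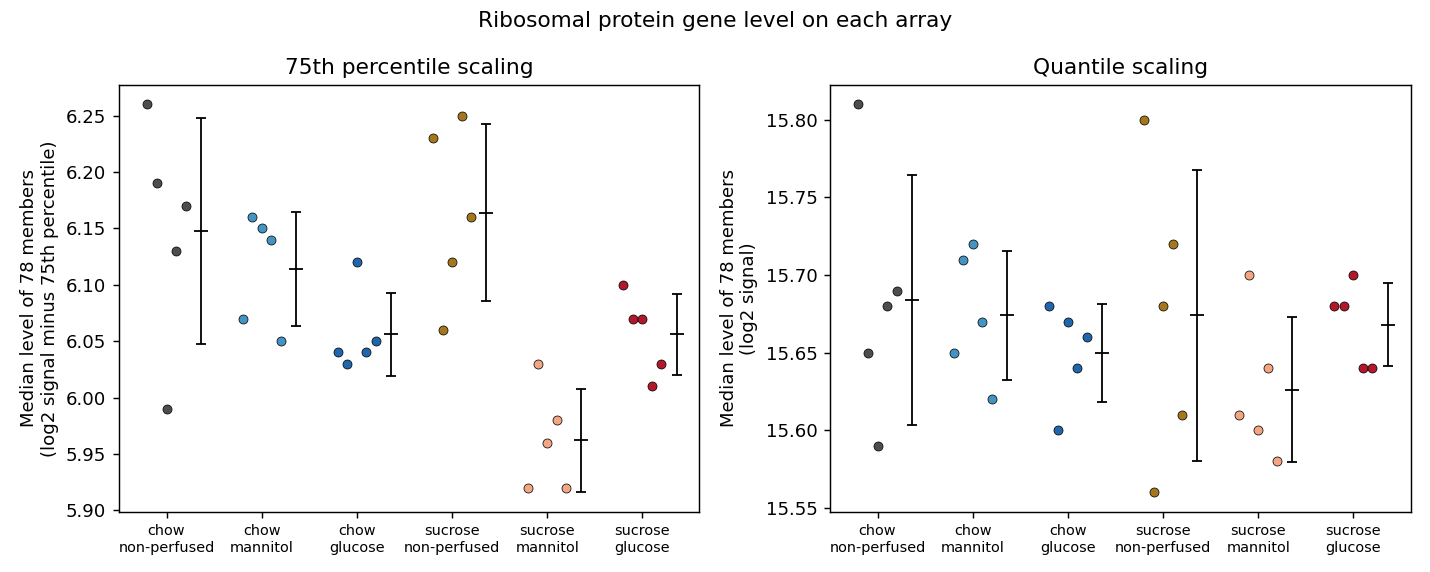
Median level of the 78 ribosomal protein genes on each of the 30 arrays (points), by group, with the group mean and standard deviation (bars, n = 5), under 75th percentile scaling on the left and quantile scaling on the right, both on a log2 axis. On the left the sucrose mannitol hearts (5.92 to 6.03) lie below the non-perfused sucrose hearts (6.06 to 6.25), while on the right the groups overlap.

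Perfusion was compared with no perfusion in 4 groups and as the mean of these 4 differences, which sets all 20 perfused against all 10 non-perfused hearts. In the mean difference 23 of the 78 genes fell and 0 rose at a Benjamini-Hochberg adjusted p under 0.05 in limma. Of all tested genes 12.3% fell and 10.0% rose. Of the 23, 17 encode large subunit proteins (of 48 tested) and 6 small subunit proteins (of 30). The changes were small: the members' median difference was -0.122 on the log2 scale, an 8.12% lower signal, against -0.035 over all tested genes and -0.084 over the rest of the brightest 10%. Under quantile scaling the median was -0.030, against -0.025 over all genes, and the calls came to 3 lower and 1 higher, with 11.1% of all genes lower and 9.7% higher. In the authors' deposited values the median was -0.022, against -0.004 over all genes. There 0 members were called in limma and 1, lower, had an unadjusted p under 0.05, as had 5.78% of all genes. The size of the fall and most of the calls therefore rest on how the arrays were scaled to each other, while the median kept its sign under these 3 scalings.

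The scaling moved the median of other bright genes as well: that of the rest of the brightest 10% went from -0.084 to -0.013 under quantile scaling. Single members moved by different amounts, Rpl41 from -0.16 to -0.03 and Rps26 from -0.12 to -0.10. On both scales the members' median lay a little further below 0 than that of the brightest 10%. In the mean difference 72 of 78 members (92.3%) were below 0 under 75th percentile scaling and 53 (67.9%) under quantile scaling, against 81.2% and 56.2% of the brightest 10%. Below 0 in all 4 perfusion comparisons were 52 members (66.7%) under the first scaling and 26 (33.3%) under the second. The 4 comparisons share the non-perfused hearts of each diet.

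**Figure D2:**
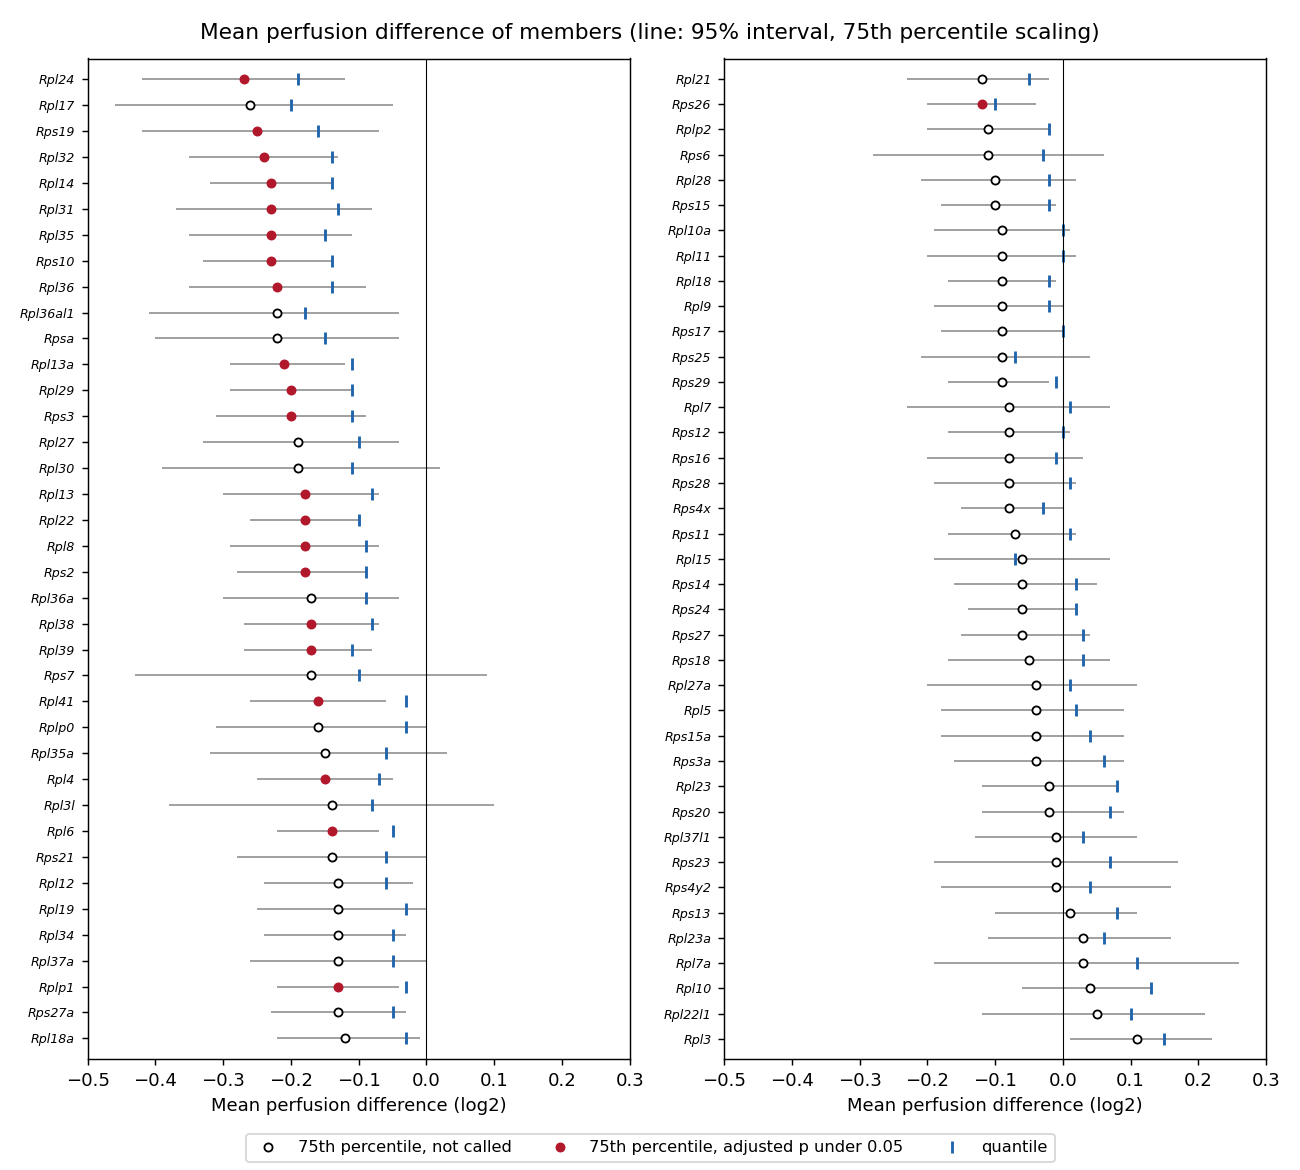
Mean perfusion difference (log2, perfused minus non-perfused) of the members, sorted (1 of the 78 is not shown), with circles and 95% intervals under 75th percentile scaling (red where the limma adjusted p is under 0.05) and blue ticks under quantile scaling. The red circles run from Rpl24 at -0.27 to Rps26 at -0.12, most blue ticks lie closer to 0 than their circles or above 0, and Rpl3, at 0.11 and 0.15, lies highest.

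Rpl14, Rps10 and Rpl24 were the 3 genes lower in perfused hearts under both scalings. Rpl14, a surface protein of the large subunit, read 6.87, 6.86, 6.65, 6.85 and 6.88 in non-perfused chow hearts, 6.51, 6.70, 6.58, 6.55 and 6.54 with mannitol, and 6.61, 6.57, 6.87, 6.78 and 6.48 with glucose. In sucrose hearts it read 6.80, 6.84, 7.05, 6.79 and 6.81 without perfusion, 6.45, 6.50, 6.57, 6.69 and 6.61 with mannitol, and 6.74, 6.60, 6.75, 6.53 and 6.55 with glucose. Neither perfused sucrose group overlapped the non-perfused one, whereas in chow hearts 1 low non-perfused array (6.65) and the upper glucose arrays did overlap. Its mean perfusion difference was -0.23 ± 0.05 (SE; 14.7% lower; adjusted p = 0.000411), and -0.14 under quantile scaling (adjusted p = 0.0151). These values are of its brighter probe, and under 75th percentile scaling its dimmer probe stood at -0.1.

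Rps10, a protein of the 40S subunit at the side where messages enter and one of the genes mutated in Diamond-Blackfan anaemia, read 6.87, 7.05, 6.88, 7.03 and 6.81 in non-perfused chow hearts, 6.79, 6.81, 6.69, 6.75 and 6.67 with mannitol, and 6.61, 6.78, 6.78, 6.89 and 6.60 with glucose. In sucrose hearts it read 6.87, 7.02, 7.03, 6.92 and 6.78 without perfusion, 6.49, 6.61, 6.64, 6.81 and 6.71 with mannitol, and 6.76, 6.45, 6.73, 6.59 and 6.72 with glucose. Only the sucrose glucose hearts, all at 6.76 or less, lay wholly below the non-perfused hearts of their diet. The mean perfusion difference was -0.23 ± 0.05 (adjusted p = 0.000411), and -0.14 under quantile scaling (adjusted p = 0.0182). On the 4 slides that hold all groups, Rps10 was lower in perfused hearts by a like amount each time, from -0.26 to -0.21.

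Rpl24, a large subunit protein near the face that meets the small subunit, had the largest mean perfusion difference, -0.27 ± 0.07 (17.1% lower; adjusted p = 0.00677), and -0.19 under quantile scaling (adjusted p = 0.0186). Non-perfused chow hearts read 7.78, 8.12, 7.65, 7.65 and 7.82, those with mannitol 7.61, 7.62, 7.52, 7.62 and 7.43, and those with glucose 7.51, 7.57, 7.85, 8.07 and 7.28. Sucrose hearts read 7.81, 7.66, 8.12, 7.79 and 7.69 without perfusion, 7.17, 7.55, 7.55, 7.55 and 7.65 with mannitol, and 7.42, 7.43, 7.43, 7.52 and 7.45 with glucose. Both mannitol groups and the sucrose glucose group lay below their non-perfused hearts without overlap, and the chow glucose hearts spread over the whole range. None of the 4 single comparisons of Rpl24 passed the test (adjusted p from 0.0562 to 0.54). All these values are of its brighter probe. In the mean difference under 75th percentile scaling its dimmer probe stood at -0.11.

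Rpl13a had the smallest adjusted p of the mean difference, -0.21 ± 0.04 (13.3% lower; adjusted p = 0.00039), but -0.11 with an adjusted p of 0.111 under quantile scaling. Its protein sits on the surface of the large subunit and can leave it to hold back translation of inflammatory messengers. Chow hearts read 6.87, 6.68, 6.73, 6.78 and 6.76 without perfusion, 6.58, 6.59, 6.66, 6.40 and 6.70 with mannitol, and 6.50, 6.58, 6.56, 6.53 and 6.69 with glucose. Sucrose hearts read 6.67, 6.60, 6.86, 6.83 and 6.68 without perfusion, 6.50, 6.59, 6.53, 6.37 and 6.37 with mannitol, and 6.45, 6.64, 6.44, 6.54 and 6.52 with glucose. The sucrose mannitol hearts did not overlap their non-perfused hearts, and the other 3 perfused groups overlapped by the highest perfused arrays.

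Other large falls in the mean difference were those of Rps19, the gene most often mutated in Diamond-Blackfan anaemia (-0.25 ± 0.09; adjusted p = 0.0374), Rpl32 (-0.24 ± 0.06; adjusted p = 0.00182), and the tunnel-exit proteins Rpl31 (-0.23 ± 0.07; adjusted p = 0.0179) and Rpl35 (-0.23 ± 0.06; adjusted p = 0.00489). None of these 4 passed under quantile scaling, where they lay between -0.16 and -0.13. Rpl17, also at the tunnel exit, had a difference of -0.26 with a wide interval (-0.46 to -0.05) and an adjusted p of 0.061. Others that fell were Rpl36, Rpl29, Rps3, Rpl13, Rpl22, Rpl8, Rps2, Rpl38, Rpl39, Rpl41, Rpl4, Rpl6, Rplp1 and Rps26, from -0.22 for Rpl36 to -0.12 for Rps26. Every 95% interval of the 78 genes lay within -0.46 and 0.26. Leaving out each of the 30 arrays in turn kept 19 of the 23 calls throughout; the exceptions were Rps19, Rpl4, Rplp1 and Rps26. All 23 genes were below 0 within each of the 4 slides that hold all 6 groups, as were 42 of the 78 members in all. These slides hold nearly all of the arrays that gave the calls, so this adds no separate support. No like count was made over all genes.

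The members with the largest differences above 0 were Rpl3 (0.11), Rpl22l1 (0.05), Rpl10 (0.04), Rpl7a and Rpl23a (0.03 each) and Rps13 (0.01), and none passed the test. Next came Rpl37l1, Rps23 and Rps4y2 at -0.01. Rpl3, a large subunit protein whose arm reaches the site of peptide bond formation, was the one member above 0 in all 4 comparisons under 75th percentile scaling, and under quantile scaling it was joined by Rpl10, Rpl22l1 and Rps20. Rpl3 read 4.26, 4.01, 4.01, 4.05 and 3.97 in non-perfused chow hearts, 4.07, 4.15, 4.28, 4.07 and 4.16 with mannitol, and 4.07, 4.20, 4.08, 4.19 and 4.18 with glucose. In sucrose hearts it read 4.24, 3.77, 4.29, 4.08 and 3.91 without perfusion, 4.21, 4.39, 4.17, 4.18 and 4.17 with mannitol, and 4.08, 4.23, 4.22, 4.11 and 4.23 with glucose. The perfused groups were tighter than the non-perfused ones and lay inside or above their range. Its mean perfusion difference was 0.11 ± 0.05 (8.2% higher; adjusted p = 0.109), and under quantile scaling it rose by 0.15 (adjusted p = 0.0345).

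**Figure D3:**
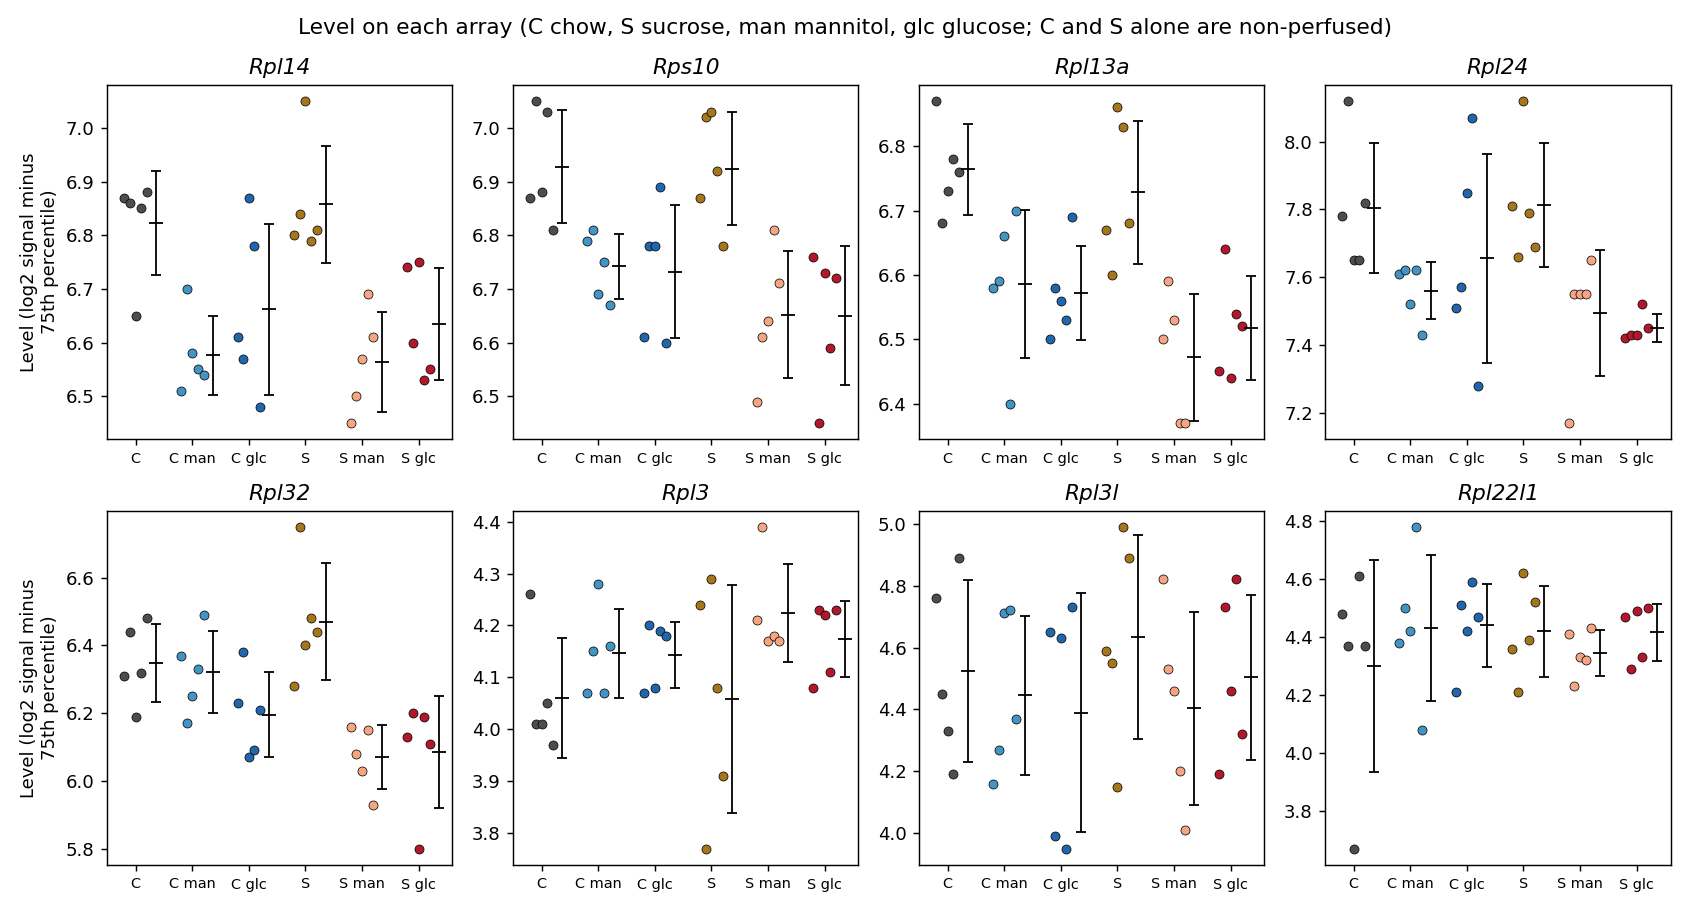
Level of 8 members on each array (points; log2 signal minus the array's 75th percentile) by diet and treatment, with the group mean and standard deviation (n = 5); each panel has its own axis and levels of different probes are not comparable. Rpl14, Rps10, Rpl13a and Rpl24 lie lower in most perfused hearts, Rpl32 is lower mainly in perfused sucrose hearts, and Rpl3 lies slightly higher. Rpl3l spreads widely in every group, and Rpl22l1 has 1 low array (3.67) in non-perfused chow hearts.

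Several ribosomal proteins have a relative that replaces them in some tissues. Rpl3l, the striated muscle relative of Rpl3, read 4.76, 4.45, 4.33, 4.19 and 4.89 in non-perfused chow hearts, 4.16, 4.27, 4.71, 4.72 and 4.37 with mannitol, and 4.65, 3.99, 4.63, 3.95 and 4.73 with glucose. In sucrose hearts it read 4.59, 4.55, 4.15, 4.99 and 4.89 without perfusion, 4.82, 4.53, 4.46, 4.20 and 4.01 with mannitol, and 4.19, 4.73, 4.46, 4.82 and 4.32 with glucose. All 6 groups overlapped. The mean perfusion difference of Rpl3l was -0.14 ± 0.12 (95% interval -0.38 to 0.10; adjusted p = 0.457), so a fall of up to 0.38 or a rise of up to 0.10 could have gone undetected here.

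Rpl22l1, the relative of Rpl22, likewise did not pass, with 0.05 ± 0.08 (interval -0.12 to 0.21; adjusted p = 0.749). Its levels ran from 3.67 to 4.61 in non-perfused chow hearts and from 4.21 to 4.62 in non-perfused sucrose hearts. Rpl22 itself, an RNA-binding protein of the large subunit, fell by 0.18 ± 0.04 (adjusted p = 0.00162), and its value under quantile scaling was -0.10 (adjusted p = 0.0889). Of the other such pairs, Rpl36a and the relative named Rpl36al1 stood at -0.17 (adjusted p = 0.0564) and -0.22 (adjusted p = 0.076). Rps4x and the relative named Rps4y2 stood at -0.08 (adjusted p = 0.131) and -0.01 (adjusted p = 0.962). Rpl39, a very small protein in the exit tunnel, fell by 0.17 (adjusted p = 0.00856), and its value under quantile scaling was -0.11 (adjusted p = 0.111). The dimmer Rpl39 probe stood at 0.0 under 75th percentile scaling. Rpl10, which completes the large subunit late in its assembly, was at 0.04 (adjusted p = 0.644), and its dimmer probe at -0.11. Rps27 was at -0.06 (adjusted p = 0.456) and Rpl7 at -0.08 (adjusted p = 0.497). Differences between the members of a pair were not tested.

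The stalk of the large subunit, which recruits the elongation factors, is built from Rplp0, Rplp1 and Rplp2. Rplp1 fell by 0.13 (adjusted p = 0.0257), while Rplp0 at -0.16 (adjusted p = 0.141) and Rplp2 at -0.11 (adjusted p = 0.067) did not pass, and under quantile scaling all 3 lay between -0.03 and -0.02. Rpl5 and Rpl11, which carry the 5S RNA and can bind Mdm2, stood at -0.04 (adjusted p = 0.72) and -0.09 (adjusted p = 0.24). Rps6, the 40S protein phosphorylated by S6 kinase, stood at -0.11 (adjusted p = 0.386). Rps27a, made as a fusion with ubiquitin, stood at -0.13 (adjusted p = 0.0527), and Rpsa, also known as the laminin receptor, at -0.22 (adjusted p = 0.0656). Rps3, which lines the entry of the message channel and also acts in DNA repair, fell by 0.20 (adjusted p = 0.00789). Of the 17 tested genes mutated in Diamond-Blackfan anaemia, a red cell disorder of ribosomal protein shortage, 5 fell (Rps19, Rps10, Rps26, Rpl31 and Rpl35). This is near the share of all members, 23 of 78, and the list's median was -0.095. Of these 5 only Rps10 passed under quantile scaling.

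The 4 single comparisons differed in how many members passed. In chow hearts perfused with mannitol 1 of 78 members fell, Rpl14 (-0.25 ± 0.08; adjusted p = 0.0377), with 3.65% of all genes lower and 4.83% higher. The members' median was -0.051 against -0.014 over all genes, and -0.036 under quantile scaling, where Rpl14 also fell (-0.22; adjusted p = 0.0422; 3.75% of all genes lower). The Rpl14 call was lost without any one of 8 arrays of this comparison: non-perfused chow replicates 1, 2, 4 and 5 and chow mannitol replicates 1, 3, 4 and 5 each left 0 calls. Without chow mannitol replicate 2, or without sucrose glucose replicate 3, 2 members were called.

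In chow hearts perfused with glucose 0 members passed in limma, with 4.04% of all genes lower and 5.47% higher, and 10 members, all lower, had an unadjusted p under 0.05, as had 11.2% of all genes in that direction. Under quantile scaling 4 had, all lower (10.9% of all genes), and 0 passed (4.19% of all genes lower and 5.65% higher). The median was -0.091 against -0.046 over all genes, and -0.048 under quantile scaling. The 95% intervals of 71 of the 78 genes lay within 0.5 of 0, and those of all 78 within 1.

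In sucrose hearts perfused with mannitol 26 of 78 members fell and 0 rose, with 5.67% of all genes lower and 5.53% higher. The median was -0.210 (13.5% lower), against -0.042 over all genes and -0.144 over the rest of the brightest 10%, of which 189 of 1759 genes fell. Among the called members the 3 largest falls were those of Rpl13 (-0.40 ± 0.09; adjusted p = 0.00332), Rpl32 (-0.40 ± 0.09; adjusted p = 0.00353) and Rpl31 (-0.39 ± 0.11; adjusted p = 0.0219). In 23 members (29.5%) all 5 perfused arrays lay under all 5 non-perfused ones, against 4.87% of all genes; under quantile scaling this held for 1 member, Rpl32. Under quantile scaling 0 members passed in limma (4.25% of all genes lower and 5.46% higher), 9 had an unadjusted p under 0.05 (6 of them lower, as were 11.1% of all genes), and the median was -0.063 against -0.033 over all genes. In the authors' deposited values the median was -0.037, against 0.034 over all genes. There 0 members passed and 1, higher, had an unadjusted p under 0.05 (6.09% of all genes). Of the 26, 20 were large subunit genes (of 48) and 6 small subunit genes (of 30). Without sucrose mannitol replicate 1, the array alone on its slide, 17 members were called, and 13 of the 26 calls were kept whichever single array was left out. Without the 4 arrays whose negative control spots varied most (non-perfused chow 2, non-perfused sucrose 1 and 5, sucrose mannitol 5) 10 members were called. When the lone array of the fifth slide was left out as well, 4 were called.

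In sucrose hearts perfused with glucose 2 of 78 members fell, Rpl32 (-0.38 ± 0.09; adjusted p = 0.00568) and Rps10 (-0.27 ± 0.08; adjusted p = 0.0211), with 3.14% of all genes lower and 5.54% higher. Rpl32, a large subunit protein, read 6.28, 6.75, 6.40, 6.48 and 6.44 in non-perfused sucrose hearts, 6.16, 6.08, 6.03, 6.15 and 5.93 with mannitol, and 6.13, 6.20, 5.80, 6.19 and 6.11 with glucose. Neither perfused group overlapped the non-perfused one. In chow hearts Rpl32 read 6.31, 6.44, 6.19, 6.32 and 6.48 without perfusion, 6.37, 6.17, 6.25, 6.33 and 6.49 with mannitol, and 6.23, 6.38, 6.07, 6.09 and 6.21 with glucose, and these groups overlapped. The members' median was -0.127 against -0.026 over all genes, and -0.024 against -0.021 under quantile scaling. In the authors' deposited values it was 0.016, on the other side of 0, against 0.08 over all genes. Under quantile scaling 0 members passed (2.98% of all genes lower and 5.23% higher) and 6 had an unadjusted p under 0.05 (5 of them lower, as were 9.35% of all genes). The count moved with single arrays: it was 1 without non-perfused sucrose replicate 3, 4 without non-perfused chow replicate 3, non-perfused sucrose replicate 5 or sucrose glucose replicate 5, and 5 without non-perfused sucrose replicate 2, sucrose mannitol replicate 1, chow glucose replicate 4 or sucrose glucose replicate 3.

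**Figure D4:**
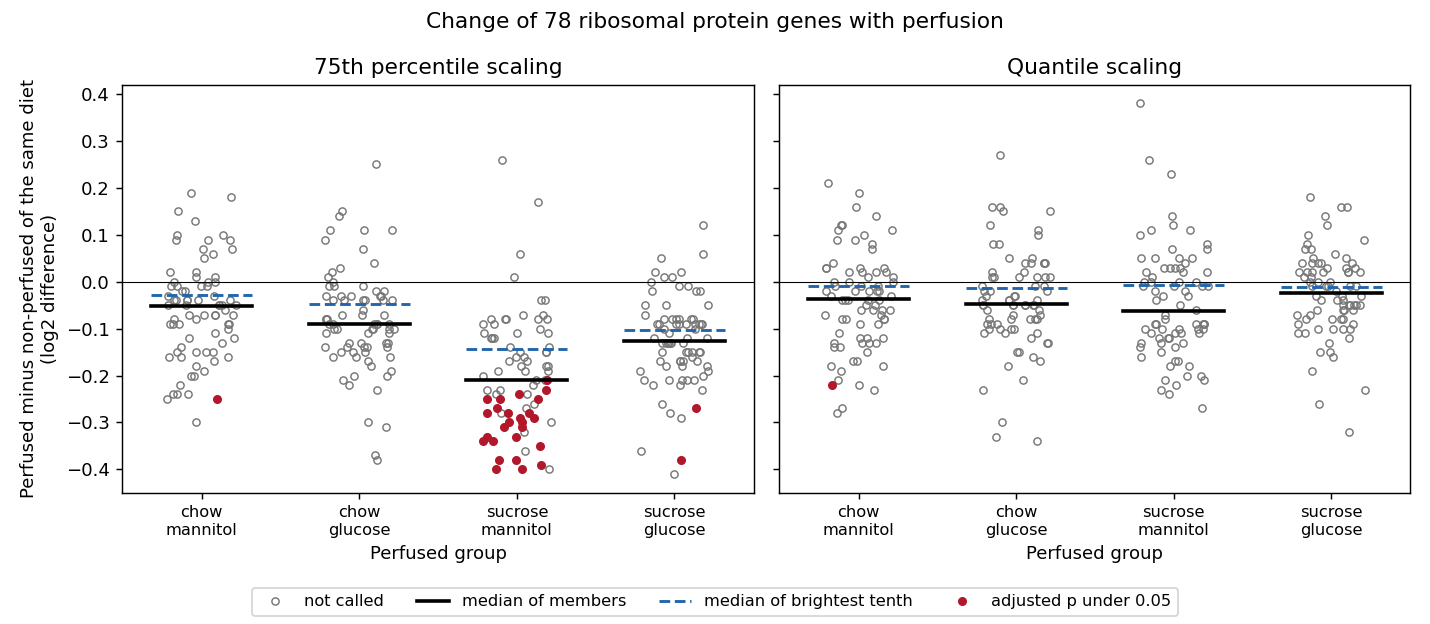
Log2 difference of each of the 78 genes (circles; red where the limma adjusted p is under 0.05) in the 4 perfused groups, relative to non-perfused hearts of the same diet, under 75th percentile scaling on the left and quantile scaling on the right. Black lines are the members' medians and dashed blue lines those of the rest of the brightest 10%: the sucrose mannitol median is -0.210 on the left and -0.063 on the right, where 1 red circle is left (Rpl14 in chow mannitol).

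Arrays were scanned slide by slide, and 4 slides hold all 6 groups. Within these slides the members' median for sucrose mannitol was -0.230, -0.211, -0.166 and -0.261, and for sucrose glucose -0.221, -0.087, -0.096 and -0.138, below 0 on every slide. For chow mannitol it was -0.113, -0.080, 0.024 and 0.015, and for chow glucose -0.203, -0.113, 0.096 and -0.034, so the chow values changed sign between slides. Under quantile scaling 1 slide or more was above 0 in each of the 4 comparisons. With slide as a fixed block 38 members fell in the mean difference, 27 in sucrose mannitol, 11 in sucrose glucose, 3 in chow mannitol and 3 in chow glucose. Of all genes 16.6%, 7.38%, 5.35%, 4.95% and 6.38% fell in these 5 fits. On the slides, all glucose arrays and 4 of the 5 sucrose mannitol arrays lay in row 2 and all non-perfused and chow mannitol arrays in row 1. Apart from 1 sucrose mannitol array, row and perfusion therefore cannot be told apart except in chow mannitol hearts, which share the row of their non-perfused hearts. For the same reason diet in mannitol-perfused hearts, and glucose against mannitol in chow hearts, go with the row, and so do the 2 interactions that take in the mannitol groups.

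**Figure D5:**
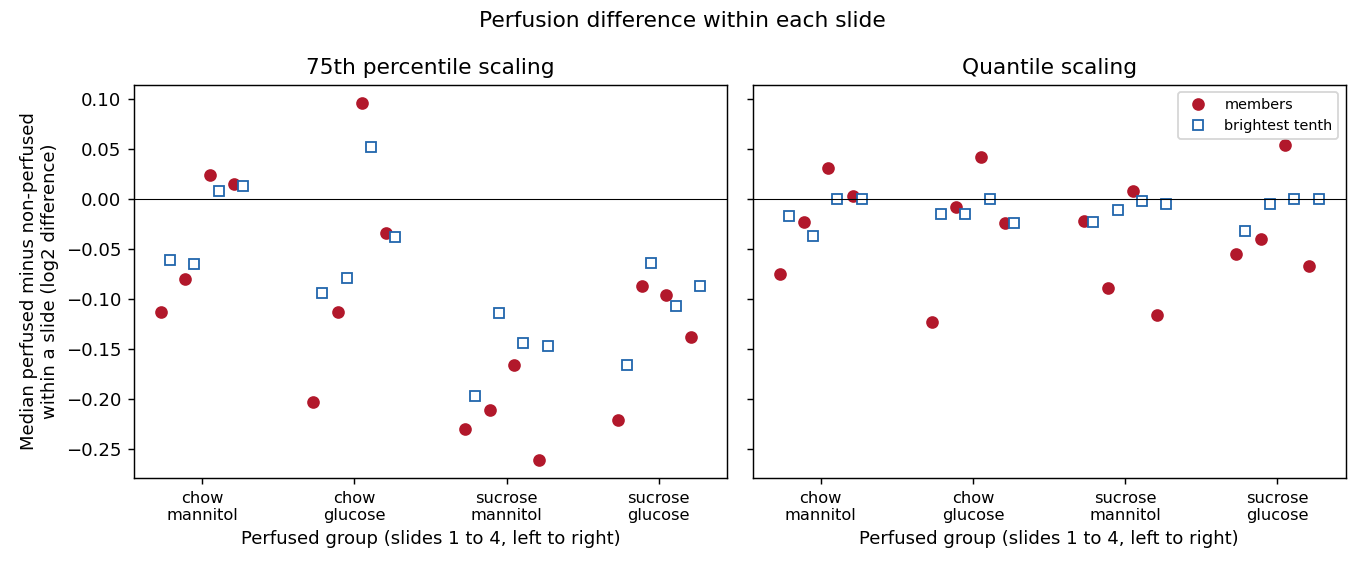
Median log2 difference, perfused minus non-perfused, within each of the 4 slides that hold all groups (slides 1 to 4 from left to right in each comparison), for the 78 genes (red circles) and the rest of the brightest 10% (blue squares), under both scalings. On the left all 8 red circles of the sucrose comparisons lie below 0 (-0.261 to -0.087) and the blue squares move with the red circles; on the right the red circles lie on both sides of 0.

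Markers of other cells moved with perfusion too. Of 5 tested red cell genes, haemoglobins among them, 4 fell, with a median of -5.61, and their summed signal relative to the 75th percentile was 427 to 690 in non-perfused and 5.67 to 76.9 in perfused hearts. Of the neutrophil markers 2 of 4 fell, of the platelet markers 2 of 3 (summed signals of 0.199 to 0.535 and 2.36 to 3.26 in non-perfused, 0.084 to 0.30 and 1.96 to 2.60 in perfused hearts), and of the lymphocyte markers 2 of 5 fell and 1 rose, while 4 of 6 macrophage and 2 of 5 fibroblast markers rose (8.93 to 15.0 and 68.7 to 94.1 in non-perfused, 10.8 to 16.5 and 72.5 to 102 in perfused hearts). In the mean difference 0 of the 8 cardiomyocyte, 4 endothelial and 4 atrial markers passed in limma, with medians of -0.08, -0.05 and -0.75. Of the atrial markers Myl7 had the lowest difference (-1.46 ± 0.58; adjusted p = 0.0717). In sucrose hearts the summed cardiomyocyte signal was 3830 to 4400 without perfusion and 2590 to 3890 with mannitol, the group with most member calls, and the summed atrial signal was 210 to 230 without perfusion and 179 to 198, entirely lower, with mannitol. The median of the cardiomyocyte markers in that comparison was -0.25, with 0 of 8 passing, and 0.02 under quantile scaling. Of the atrial markers Myl4 fell (-0.20 ± 0.06; adjusted p = 0.0298), but not under quantile scaling (0.01). The other atrial markers did not pass in that comparison: Myl7 was at -1.75, Nppa at 0.21 and Sln at -0.24. A sum of signals follows its brightest genes, so it need not show all markers of a list. In whole tissue, fewer cells of a type and less RNA per cell cannot be told apart, and the part of these markers, blood included, in the members' fall was not tested.

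Neither glucose nor the diet gave a call among the ribosomal protein genes. In each of the other 8 comparisons limma called 0 of 78 members, under either scaling. Of all genes 0.0% were called, except that 0.00545% (1 gene) rose with glucose in sucrose hearts and 0.00545% (1 gene) fell with sucrose in mannitol-perfused hearts. Glucose against mannitol in chow hearts had a median of -0.016, and 0.004 under quantile scaling, with 1 member, lower, under an unadjusted p of 0.05 (2.30% of all genes). The smallest p values belonged to Rps15, a 40S protein near the decoding site (-0.16 ± 0.07), and Rps19 (-0.26 ± 0.14), both with an adjusted p of 0.999. In sucrose hearts the median was 0.088 against 0.021 over all genes, and 0.034 under quantile scaling; 10 members, none lower, had an unadjusted p under 0.05 (3.51% of all genes were higher at that p), led by Rpl18 (0.18 ± 0.06) and Rpl19 (0.27 ± 0.10), with adjusted p of 0.97. The 95% intervals of 75 of the 78 genes lay within 0.5 of 0 in each of these 2 comparisons.

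Sucrose against chow in non-perfused hearts had a median of 0.018, -0.013 under quantile scaling and -0.081 in the authors' deposited values. Its sign went with the scaling, and in the deposited values the median of all genes was also below 0, at -0.124. Here 3 members, all higher, had an unadjusted p under 0.05 (1.43% of all genes), and the smallest were those of Rpl23a (0.27 ± 0.11; adjusted p = 1) and Rpl37l1 (0.22 ± 0.10; adjusted p = 1). In glucose-perfused hearts the median was -0.025, 0.010 under quantile scaling and 0.036 in the authors' deposited values, where that of all genes was 0.094. Under 75th percentile scaling 0 members were under 0.05 (4.39% of all genes in either direction). The smallest p values were those of Rps15a (0.21 ± 0.11) and Rpl7a (-0.33 ± 0.18), both with an adjusted p of 0.999. In mannitol-perfused hearts 73 of 78 members were lower with sucrose, the median was -0.122 against -0.032 over all genes and -0.082 over the brightest 10%, and 20 members had an unadjusted p under 0.05, all lower, as had 5.41% of all genes. Under quantile scaling the median was -0.032 and 5 members had, 2 of them lower and 3 higher (3.95% and 3.21% of all genes). These 2 groups differ in slide row except for 1 sucrose array, so apart from it diet and row cannot be told apart here.

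Rpl23, which lies between the subunits and can bind Mdm2, had the lowest difference between diets in mannitol-perfused hearts among the members. Chow hearts read 6.89, 6.60, 6.95, 6.71 and 6.92 without perfusion and 6.96, 6.99, 6.93, 7.03 and 7.03 with mannitol. Sucrose hearts read 6.97, 7.01, 6.92, 6.93 and 7.08 without perfusion and 6.63, 6.76, 6.82, 6.66 and 6.64 with mannitol. With mannitol the sucrose hearts all lay under the chow hearts and under the non-perfused sucrose hearts. The difference between diets in mannitol-perfused hearts was -0.29 ± 0.08 (adjusted p = 0.385), and the interaction of diet with mannitol perfusion was -0.46 ± 0.12 (adjusted p = 0.458). Rps15 had -0.23 (adjusted p = 0.385) and an interaction of -0.34 ± 0.09 (adjusted p = 0.546). Under quantile scaling the interactions were -0.31 for Rpl23 and -0.21 for Rps15. After adjustment over all genes neither passed.

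The 3 interactions had 0 calls in limma among all genes. That of diet and mannitol perfusion had a member median of -0.138 and 20 members under an unadjusted p of 0.05, 19 of them lower (4.18% of all genes). Under quantile scaling it had -0.004 and 5 members, 4 of them lower (3.34% of all genes). In the authors' deposited values its median was 0.009, against 0.024 over all genes. That of diet and glucose perfusion had a median of -0.038, 0.022 under quantile scaling and 0.097 in the authors' deposited values, where that of all genes was 0.21. Under 75th percentile scaling it had 0 members under 0.05 (2.62% of all genes in either direction), and Rpl13 (-0.25 ± 0.13) was among the members of smallest p. That of diet with glucose against mannitol had a median of 0.103, and 0.030 under quantile scaling, with 5 members, all higher, under 0.05 (3.81% of all genes), led by Rpl18 (0.27 ± 0.09) and Rps15 (0.24 ± 0.09). Each of these genes, in the interaction it is named under, had an adjusted p of 0.932 or more in limma. So a different response of the members in the 2 diets was not shown, although 26 passed in sucrose and 1 in chow hearts with mannitol. The interaction's 95% intervals lay within 0.5 of 0 for 49 of 78 members.

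Members with and without the start motif had like medians; the difference was not tested. The 23 genes with the motif at the start had a median mean perfusion difference of -0.130 and the 40 without it -0.127. With the motif within 10 bases the median was -0.13 (48 genes), and without it -0.113 (15 genes). Of 19 windows of other messengers known for the tract, 0 had the motif at the annotated start and 63.2% within 10 bases. The motif at the annotated start therefore need not separate genes with the tract from genes without it. Of the 20 called members with a window, 35.0% had it at the start, and of the 44 windows of members that were not called, 36.4%. Rpl24, which fell most, and Rpl3, which lay highest, both lack it at the annotated start.

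Probes of one gene mostly gave the same sign. Of 47 members with at least 2 probes above background on 24 or more arrays, all probes were below 0 in the mean perfusion difference in 41, above 0 in 2, and of both signs in 4. Most members were below 0 under this scaling, so like signs alone say little about the agreement of probes. The median distance between a gene's highest and lowest probe was 0.07. The largest, 0.39, was that of Rpl36a, whose dimmest of 4 probes stood at 0.22 and its other 3 between -0.17 and -0.11. For Rps4y2 the brighter probe stood at -0.01 and the dimmer one at -0.38. RefSeq names 863 pseudogene entries for 74 of the 78 members, a median of 11 a gene and up to 36 for Rps2, and whether a probe also bound such copies was not tested.

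Other genes of the pathway moved in both directions, in lists chosen with earlier results of these data known. Of 47 tested genes of ribosome biogenesis and RNA polymerase I, 5 fell and 6 rose in the mean perfusion difference. Both shares lay near those of all tested genes given above, and the median was 0.001 (-0.001 under quantile scaling). The largest rises were those of Myc, the transcription factor that drives ribosome production (3.25 ± 0.13; adjusted p = 1.13e-16), and Gnl3, a nucleolar GTPase (0.23 ± 0.05; adjusted p = 0.000535). The largest falls were those of the assembly factors Rrs1 (-0.35 ± 0.05; adjusted p = 6.1e-06) and Nip7 (-0.32 ± 0.05; adjusted p = 6.12e-06). These 4 values changed by at most 0.01 under quantile scaling.

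Of 26 tested genes of the mTOR pathway and its regulators, 4 fell and 5 rose. Whether these counts differ from the shares of all tested genes given above was not tested. Ddit4 and Sesn3, both inhibitors of mTOR signalling, fell by 0.49 (adjusted p = 8.38e-05) and 0.43 (adjusted p = 0.000579). Sesn2, also an inhibitor, and Mdm2, the ubiquitin ligase of p53, rose by 0.98 (adjusted p = 0.000698) and 0.44 (adjusted p = 0.000742). Of 21 other messengers known for a terminal oligopyrimidine tract the median was -0.031 (0.000 under quantile scaling). In this list 0 rose and 3 fell, near the share of all tested genes that fell. Among the 3 was the elongation factor subunit Eef1d (-0.17 ± 0.05; adjusted p = 0.0192), which did not pass under quantile scaling.

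Mitochondrial ribosomal proteins, which serve a separate ribosome, fell in 19 of 67 tested genes and rose in 0, with a median of -0.122, the same as that of the cytosolic ones. Under quantile scaling 16 of the 67 fell, all 16 of them among the 19, and the median was -0.090, while the cytosolic genes were at 3 of 78 and -0.030. Mrpl14 fell by 0.28 (adjusted p = 0.000181) and Mrps16 by 0.27 (adjusted p = 3e-06). Of 36 proteasome subunit genes 3 fell, a smaller share than of all tested genes, and 0 rose (median -0.048). Psmb9 and Psmb10, subunits of the immunoproteasome, each fell by 0.34 (adjusted p = 0.00129 and 0.000908). The difference between these lists was not tested.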

How the data were processed

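Intensities of 30 one-colour arrays were used. Per the file headers, the deposited processed signal intensity was background-subtracted and detrended within each array by Agilent Feature Extraction 11.0.1.1 (10.3 per the submitters' processing notes). The authors' deposited series table, used as an alternative, holds log2 values whose scaling between arrays is not given in the sources used here. Spots of 1 probe were averaged without outlier spots, and log2 values were set against each array's 75th percentile. Probes were named through their accession in RefSeq's GRCr8 gene table (18355 of 30367 matched, 60.4%), and the brightest probe stood for a gene. The 18333 genes whose probe was well above background in 4 or more of the 5 hearts of some group were fitted with limma 3.58.1 in R 4.3.3 as 6 group means, with 13 comparisons, each adjusted over all tested genes by the Benjamini-Hochberg method at 0.05. The script was tested on simulated data. Between 48.8% and 75.4% of probes were well above background on an array, and 5 arrays a group limit the precision.

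Members, lists and named genes were chosen with earlier results of these data known. Named were the 8 largest falls and rises of the mean perfusion difference, the 3 largest called changes of each perfusion comparison, the smallest p values elsewhere, members with special roles, and the called genes of largest change in other lists. Rpl23, Rps7 and the probes of Rpl36a, Rps4y2, Rpl14, Rpl24, Rpl39 and Rpl10 were shown in more detail after their values were seen. Alternatives covered scaling, background correction (normexp, offset 50), filter, probe choice, slide and replicate blocks, samples and variance model. Values of 2 genes are not reported here.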

Additional observations from a re-analysis of the deposited data

Results flagged for a closer look

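In 54 groups of 5 arrays (9 values by 6 groups: the members' median level and the levels of 8 genes), 1 array stood apart from the other 4 in 7 groups by Dixon's criterion (a gap over 0.71 of the range), and chance alone marks about 1 in 20 groups. The members' median level of chow glucose replicate 3 was 6.12, against 6.03 to 6.05 in the rest of its group. Rpl14 stood at 6.65 in non-perfused chow replicate 3, below its group (6.85 to 6.88), and at 7.05 in non-perfused sucrose replicate 3, above its group (6.79 to 6.84). Rpl24 stood at 7.17 in sucrose mannitol replicate 1, the array alone on its slide, below 7.55 to 7.65. Rpl3 stood at 4.26 in non-perfused chow replicate 1, above 3.97 to 4.05, and at 4.39 in sucrose mannitol replicate 2, above 4.17 to 4.21. Rpl22l1 stood at 3.67 in non-perfused chow replicate 3, below 4.37 to 4.61.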

How the results depend on the processing

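No result changed direction while called. The members' calls depended on the scaling and background. Counts of lower members in the mean perfusion difference (23), sucrose mannitol (26), sucrose glucose (2) and chow mannitol (1) became 3, 0, 0 and 1 with quantile scaling, where 1 member was also higher in the mean difference. They became 0 in all 4 with the authors' deposited values, 10, 3, 1 and 0 with normexp, 38, 27, 11 and 3 with slide as a fixed block and 36, 30, 10 and 2 as a random block. In chow glucose (0) the slide blocks gave 3 and 2, and scaling to the median of the probes that every array detected gave 1. Sucrose glucose gave 7 with that scaling, with a gene's probes averaged and with trend and robust options, and 6 with the filter on all arrays. Chow mannitol gave 2 with that filter and with the trend and robust options, and 0 without a filter. With only the compared groups in the fit, sucrose mannitol gave 6, sucrose glucose 1 and chow mannitol 0. Settings chosen after the arrays were seen gave 11, 10 and 0 (mean, sucrose mannitol, chow mannitol) without the 4 arrays whose control spots varied most, and 13, 4 and 0 when the lone array of the fifth slide was left out too. Leaving out 1 array at a time gave 21 to 32, 17 to 28, 1 to 5 and 0 to 2 lower members, and 0 to 1 higher members in the mean difference. The members' level, perfused minus non-perfused sucrose hearts, moved from -0.16 to -0.03 with quantile scaling and -0.01 in the deposited values. Causes were not tested. Replicate numbers do not pair the hearts (mean correlation of same-numbered arrays -0.0366, lowest -0.329); with the replicate block 22, 25, 2 and 0 members were lower. Intervals of about 0.18 either side of a single comparison's difference limit what 5 arrays a group can show.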
